A study of Mus musculus with 43 samples.

Results

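The mouse genes Zfp900 to Zfp999 form a numbered run of zinc finger genes, and they were described here strain by strain in sorted brain endothelial cells (EC). Members were the rows of the count table with a symbol in this run and at least 10 counts summed over all libraries. Of 64 rows with such a symbol, 55 met this minimum, out of 54532 genes in the table. The remaining 9 rows (Zfp935, Zfp966, Zfp967, Zfp968, Zfp972, Zfp973, Zfp986, Zfp987 and Zfp989) held 0 to 7 counts each. The weakest members just inside the minimum were Zfp965 with 28 counts, Zfp969 with 30 and Zfp957 with 35. All 55 members also passed the filter of the tests, 0.5 CPM (counts scaled to a common library size) in at least 1 library.

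Most genes of this kind encode proteins with a KRAB box at one end and a row of C2H2 zinc fingers at the other. Each finger folds around a zinc ion held by a pair of cysteines and a pair of histidines and contacts a few bases of DNA, while the KRAB box recruits Trim28 (KAP1), which brings the histone methyltransferase Setdb1, HP1 proteins and deacetylases and so packs the bound DNA into silent chromatin. Many KRAB zinc finger proteins bind retrotransposons, and their genes lie in tandem clusters that gain and lose copies quickly, so that species and even mouse strains differ in them.

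The 43 libraries came from EC sorted as CD45-, CD11b- and CD31+ from cortex or hippocampus of mice 2 months old. There were 6 libraries of C57BL/6J, 9 of 129S1/SvImJ, 5 of A/J, 5 of DBA/2J and 6 of NOD/ShiLtJ (long-inbred strains, 31 libraries), and 6 each of CAST/EiJ and WSB/EiJ (wild-derived strains, 12 libraries). All mice were untreated inbred animals; 16 libraries were from females and 27 from males, and 21 were from cortex and 22 from hippocampus. The sexes were not spread evenly, with 6 of 9 libraries female in 129S1/SvImJ, 1 of 5 in A/J and DBA/2J and 2 of 6 in the other strains. The titles also carry a tag, high or low, which the labels do not define; 15 of the 16 female libraries are tagged high. Whether a cortex and a hippocampus library share a mouse is not in the labels, so p-values measure the spread between libraries, part of which may be technical.

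Library totals ran from 1626534 to 49372356 counts, with the lowest median in WSB/EiJ and the highest in 129S1/SvImJ. The 10 endothelial markers summed to 8570 to 17250 CPM in every library, against 1725 to 9360 CPM for 6 pericyte markers and 255.8 to 2702 CPM for 6 astrocyte markers. Neuron markers summed to 79.6 to 823.7 CPM, microglial markers to at most 147.0 CPM, and the 3 immune markers were at 0 in 25 libraries. Pericyte markers differed by strain, at 1725 to 2736 CPM in CAST/EiJ, 2449 to 6954 CPM in C57BL/6J and 4497 to 9360 CPM in WSB/EiJ. Within strains these markers were higher in libraries tagged low, and the tags overlapped only in NOD/ShiLtJ. In C57BL/6J they stood at 6826 and 6954 CPM in libraries tagged low and at 2449 to 3575 CPM in those tagged high. The part of depth and of pericyte RNA in the results on the members was not tested. Fewer cells of a type and less RNA per cell cannot be told apart in such sorted bulk samples.

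All 55 members matched the GENCODE M21 annotation (GRCm38, the assembly of mm10) by identifier. They lie on 12 chromosomes, with 13 members in a cluster on chromosome 4 (chr4:145510759-147848366), 10 on chromosome 17 (chr17:21567008-22867134), 5 on chromosome 2 (chr2:175469985-178078476) and 4 each on chromosomes 7 and 8. The longest coding sequences hold 0 to 21 fingers, with a median of 11, in the 54 members that have a coding sequence; Zfp939 is annotated as a transcribed pseudogene. A KRAB-like pattern was found in 50 of these 54 and not in Zfp945, Zfp950, Zfp956 and Zfp957. The closest relative by coding sequence was at least 90% identical over the aligned part in 26 of the 53 members for which one was found. That part can be short, as in Zfp956 (5.70% of the coding sequence) and Zfp941 (6.37%). Their matches, Zfp783 and Gm45785, are genes that overlap them on the same strand.

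The transcripts of each member were cut into all windows as long as a sequencing read and each window was looked up among the transcripts of all other genes. In 35 of 55 members at least 1 window was also present in another gene, the median share was 1.38% of windows, and in 6 members the share was 50% or more. The other genes included ones that overlap a member on the same strand, such as Zfp783 for Zfp956 and Gm45785 for Zfp941. Among the 310 other genes named Zfp and a number, 108 shared a window, the median was 0% and 8 reached 50%. The 9 rows under the count minimum had a median share of 72%. A pair of coding stretches of 1 read length from the chromosome 4 cluster are shown to make this concrete, both in GRCm38 and in the direction of the gene. The stretch of Zfp984 (chr4:147755613-147755737, minus strand) occurs unchanged in Gm13212, and the stretch of Zfp982 (chr4:147512519-147512643, plus strand) occurs in no other gene. Capitals mark the codons of the 2 cysteines and 2 histidines of 1 finger.
Zfp984: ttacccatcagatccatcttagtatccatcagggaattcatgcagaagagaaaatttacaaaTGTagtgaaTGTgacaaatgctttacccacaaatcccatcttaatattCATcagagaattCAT
Zfp982: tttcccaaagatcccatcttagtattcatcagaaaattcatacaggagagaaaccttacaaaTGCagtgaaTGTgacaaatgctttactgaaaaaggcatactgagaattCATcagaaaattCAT

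The promoters of the 3 chromosome 4 members with the lowest levels in CAST/EiJ beside a mean above 5 CPM in other strains are shown next, chosen after their values were seen. The windows run from 250 bases before to 50 after the RefSeq start (GRCm38.p6): Zfp979 at chr4:147642459-147642758 (minus strand), Zfp982 at chr4:147492167-147492466 (plus strand) and Zfp984 at chr4:147809739-147810038 (minus strand). Capitals mark the longest run common to all 3, 16 bases long.
Zfp979: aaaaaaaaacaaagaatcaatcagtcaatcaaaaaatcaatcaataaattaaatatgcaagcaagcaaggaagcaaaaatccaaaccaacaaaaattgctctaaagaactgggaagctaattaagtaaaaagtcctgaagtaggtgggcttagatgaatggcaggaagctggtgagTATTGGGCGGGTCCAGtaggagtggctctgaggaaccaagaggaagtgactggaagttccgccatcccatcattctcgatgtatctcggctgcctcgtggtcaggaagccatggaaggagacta
Zfp982: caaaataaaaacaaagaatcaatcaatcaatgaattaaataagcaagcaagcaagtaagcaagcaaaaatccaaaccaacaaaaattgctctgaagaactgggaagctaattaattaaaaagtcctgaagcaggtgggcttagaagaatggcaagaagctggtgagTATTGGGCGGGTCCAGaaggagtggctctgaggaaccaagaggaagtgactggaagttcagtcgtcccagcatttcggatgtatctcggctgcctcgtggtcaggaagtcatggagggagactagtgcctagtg
Zfp984: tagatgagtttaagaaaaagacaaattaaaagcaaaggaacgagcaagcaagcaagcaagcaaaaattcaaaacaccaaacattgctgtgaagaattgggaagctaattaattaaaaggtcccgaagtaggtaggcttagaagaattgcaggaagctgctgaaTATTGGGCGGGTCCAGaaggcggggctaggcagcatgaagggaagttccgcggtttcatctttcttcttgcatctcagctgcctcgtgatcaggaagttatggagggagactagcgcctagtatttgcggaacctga

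The promoters of Zfp979 and Zfp982 were 84.6% identical over their alignment, those of Zfp982 and Zfp984 72.3% and those of Zfp979 and Zfp984 67.9%. Searched on both strands, the run TATTGGGCGGGTCCAG was present in 9 of 32851 promoter windows (0.0274%), and all 9 lie on chromosome 4. They belong to 6 of the 47 members with a promoter in the table (Zfp979, Zfp980, Zfp982, Zfp984, Zfp985 and Zfp988) and to Gm13212, Rex2 and Zfp600. A run of letters is a description of these windows and not a mapped binding site.

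Members were weakly expressed in EC. Each library held counts for 15 to 46 of the 55 members, with a median of 32, and the members together summed to 155.4 to 550.8 CPM. Only Zfp945 and Zfp949 had a count in every library, and 10 members had one in fewer than 10 libraries. Detection moved with depth, though not in every library: the 2 libraries with the fewest members (15 and 16) being WSB/EiJ libraries of 2327180 and 1626534 counts.

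**Figure D1:**
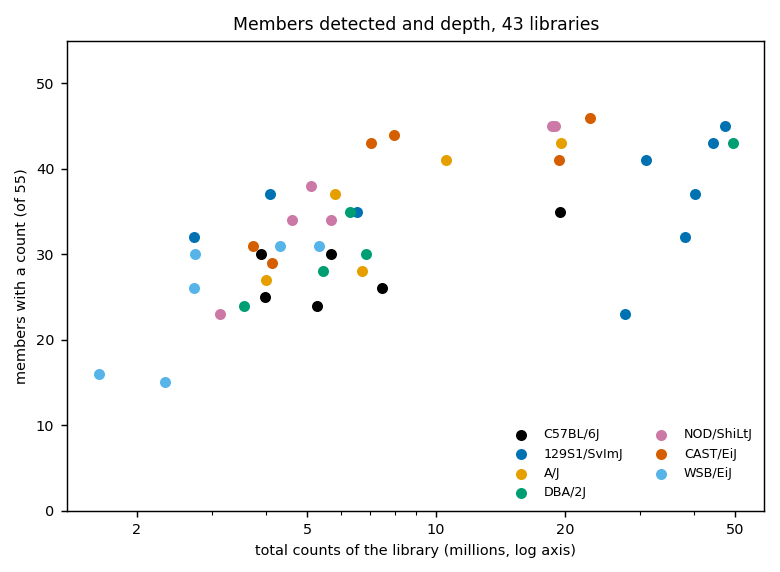
Members with at least 1 count (of 55) against the total counts of the library (log axis), 1 point per library and coloured by strain. The 2 shallowest libraries, both WSB/EiJ, hold 16 and 15 members and a CAST/EiJ library holds 46, while a deep 129S1/SvImJ library holds 23.

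Compared per length of gene model, the mean over all libraries ran from 0.0171 to 5.04 CPM per kb with a median of 1.18. The highest were Zfp971 (5.04 CPM per kb), Zfp948 (3.66), Zfp970 (3.37), Zfp949 (3.07) and Zfp933 (2.95), all KRAB zinc finger genes whose targets are not given in the sources used here. None of these 5 passed the test between strains. The strain means of Zfp933 lay between 9.31 CPM in C57BL/6J and 14.7 CPM in CAST/EiJ (adjusted p = 0.996). Zfp949 ranged from a mean of 3.60 ± 1.61 CPM in A/J (SD, n = 5) to 20.3 ± 11 CPM in DBA/2J (SD, n = 5), with an adjusted p of 0.760 in the edgeR test.

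**Figure D2:**
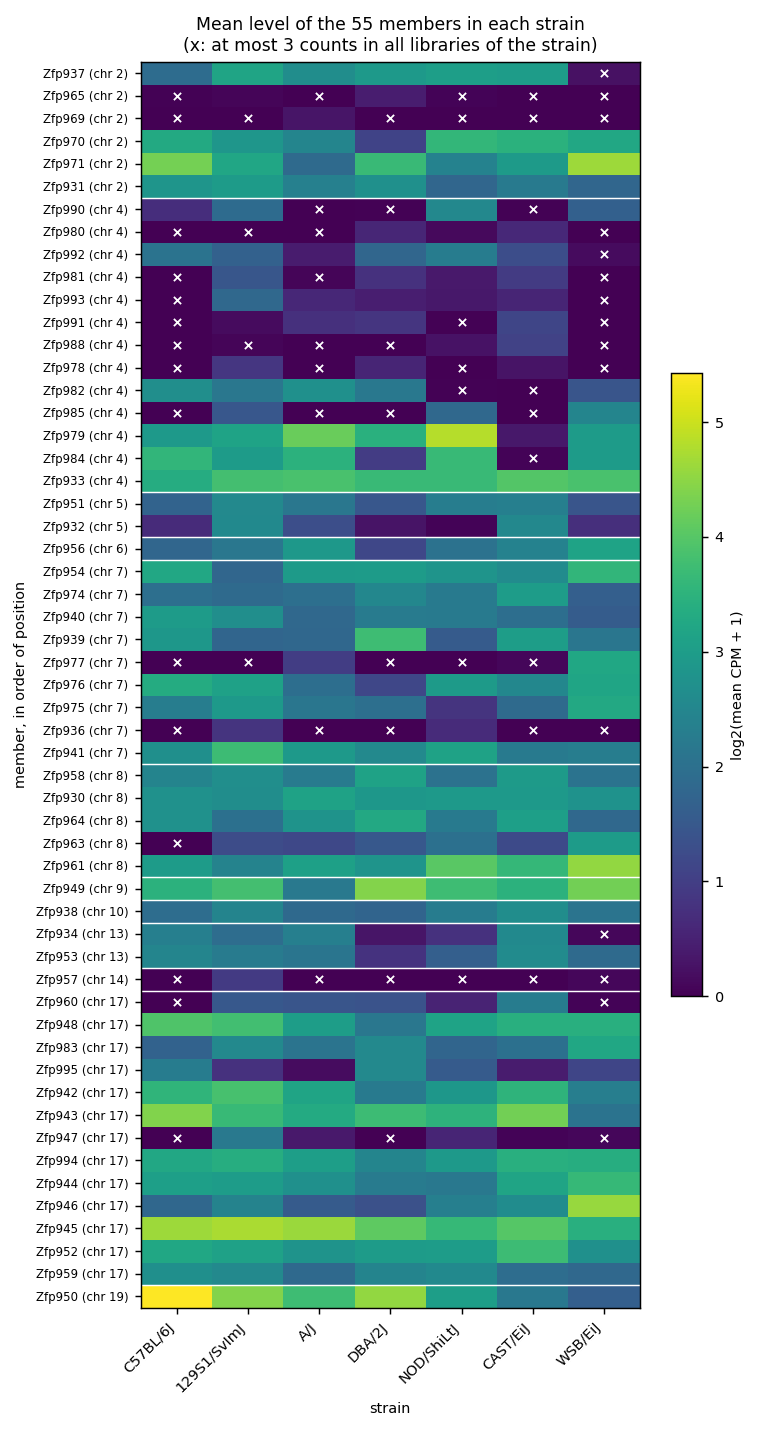
Mean level of each of the 55 members in each strain, as log2(mean CPM + 1), ordered by chromosome and position, with white lines between chromosomes. A white x marks a strain whose libraries hold at most 3 counts of the member in all, seen in 15 members for C57BL/6J and for WSB/EiJ and in 4 for 129S1/SvImJ.

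The first question was which members differ between the 7 strains. edgeR's quasi-likelihood test called 3 of 55 members (5.45%), Zfp950, Zfp979 and Zfp977, at a Benjamini-Hochberg adjusted p under 0.05, against 2.68% of all 29120 genes tested and 3 of 299 other Zfp genes (1.0%). At an unadjusted p under 0.05 there were 8 members (14.5%), against 10.7% of all genes. These 3 calls rest on different patterns: a graded difference, a high and a low strain, and a single library.

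Zfp950 (ENSMUSG00000074733, chr19:61053840-61140840) has 17 fingers, shares no window with another gene and is 1 of the 4 members in which no KRAB-like pattern was found. In C57BL/6J its level was 11.6 CPM in the lowest library, 25.9 in the median and 137.3 in the highest, and in 129S1/SvImJ 0.413, 23.98 and 39.8 CPM. The DBA/2J libraries stood at 42.3, 9.62, 3.73, 12.6 and 43.8 CPM and the A/J libraries at 9.41, 12.5, 6.495, 10.6 and 22.5 CPM. The levels fell further in the remaining strains. NOD/ShiLtJ ran from 1.69 to 16.7 CPM with a median of 5.96, CAST/EiJ from 0 to 8.24 with a median of 3.10 and WSB/EiJ from 0 to 7.86 with a median of 0.582. Every C57BL/6J library lay above every CAST/EiJ and WSB/EiJ library, while 129S1/SvImJ, A/J, DBA/2J and NOD/ShiLtJ each overlapped with C57BL/6J. Both female C57BL/6J libraries (37.4 and 137.3 CPM) lay above its 4 male libraries.

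The adjusted p of Zfp950 between strains was 0.00286 in edgeR. It stayed under 0.05 with each library left out in turn, the highest value being 0.0419. In the 27 male libraries alone the adjusted p was 0.908, although the 4 male C57BL/6J libraries (11.6 to 33.4 CPM) still lay above the 4 male CAST/EiJ libraries (0 to 8.24 CPM) and the 4 male WSB/EiJ libraries (0 to 7.86 CPM).

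Zfp979 (ENSMUSG00000066000, chr4:147611937-147642513) is a KRAB gene with 3 fingers in the annotated coding sequence and shares 19.0% of its windows, most with Zfp978. NOD/ShiLtJ held the highest levels, from 15.3 to 38.4 CPM with a median of 27.9. A/J libraries stood at 21.8, 7.74, 15.5, 36.6 and 4.04 CPM and DBA/2J libraries at 7.52, 7.22, 6.604, 8.97 and 19.1 CPM. The medians of C57BL/6J, 129S1/SvImJ and WSB/EiJ were 5.05, 4.96 and 7.17 CPM, with single libraries at 0 in each of these strains. In CAST/EiJ 4 of 6 libraries were at 0, a library held 1 count and another 11 counts (1.59 CPM). NOD/ShiLtJ did not overlap with CAST/EiJ, DBA/2J overlapped with NOD/ShiLtJ only in its highest library, and the adjusted p between strains was 0.0134. It was 0.169 in the male libraries alone and 0.161 in the libraries tagged high. Zfp978, the gene that shares most windows with Zfp979, had 11 counts in CAST/EiJ and 0 in NOD/ShiLtJ.

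Zfp977 (ENSMUSG00000092335, chr7:42579783-42592547), a KRAB gene with 11 fingers, was counted in 4 of 43 libraries. A single WSB/EiJ library, female hippocampus, held 207 counts (50.4 CPM) while the other 5 of that strain were at 0. The remaining counts were 16 and 13 in A/J libraries (2.63 and 2.28 CPM) and 3 in a CAST/EiJ library. The adjusted p of 0.0287 therefore rests on a few libraries. It was 0.802 without that WSB/EiJ library, and between 0.0508 and 0.0534 without A/J replicate 5, NOD/ShiLtJ replicate 2 or 129S1/SvImJ replicates 2 or 4, and DESeq2 gave 0.900.

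**Figure D3:**
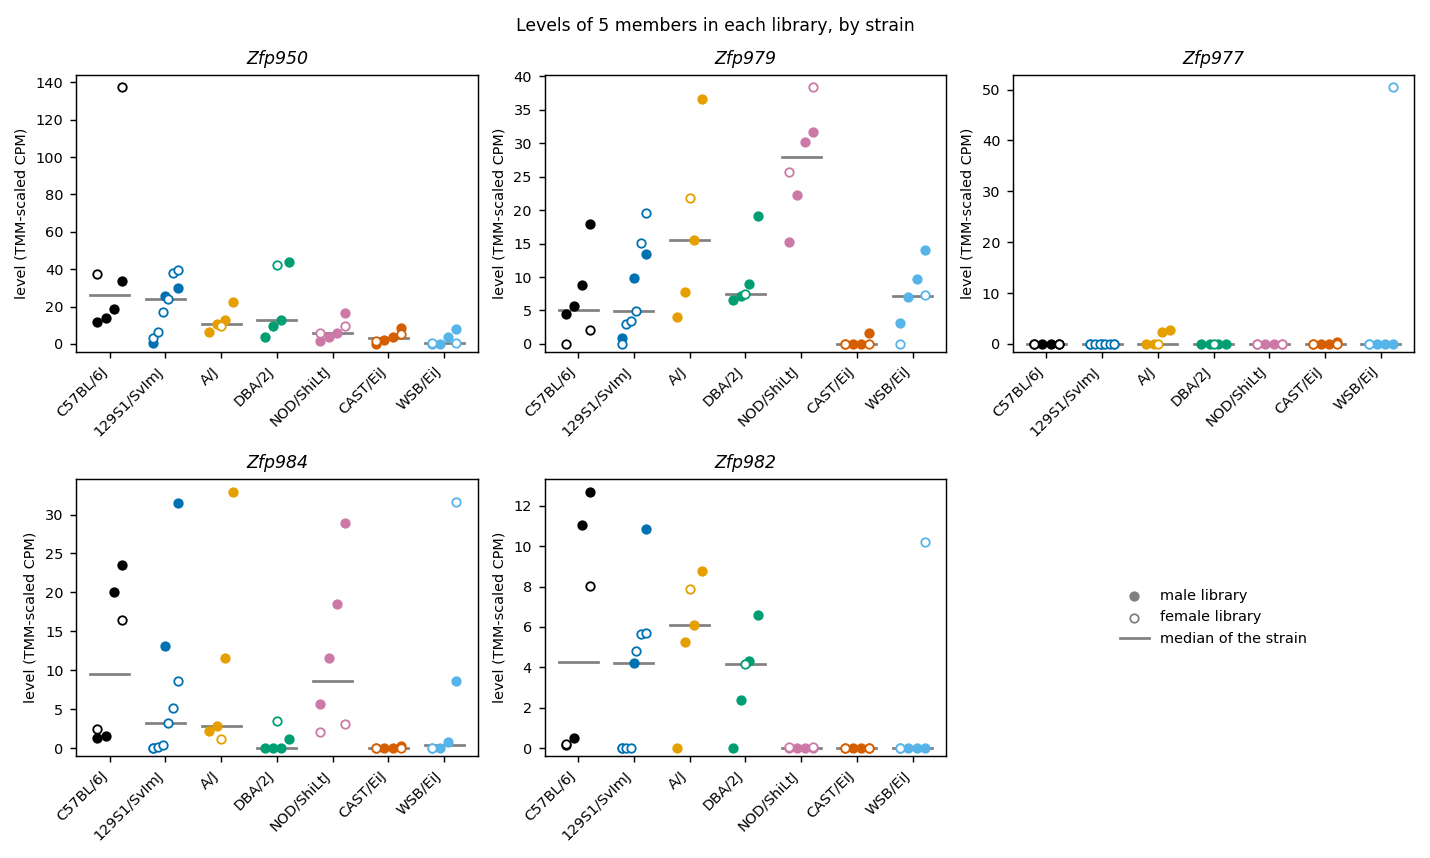
Levels in TMM-scaled CPM of Zfp950, Zfp979, Zfp977, Zfp984 and Zfp982 in each of the 43 libraries, by strain; filled points are male and open points female libraries, and the line is the median of the strain. Zfp950 has its highest median in C57BL/6J and its lowest in WSB/EiJ, Zfp979 is highest in NOD/ShiLtJ and near 0 in CAST/EiJ. The Zfp977 call comes from 1 library at 50.4 CPM.

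The reads of every strain were aligned to mm10, a genome of C57BL/6J, so each strain was also set against C57BL/6J within the same fit. Of 330 member and strain pairs, 4 were called (adjusted p under 0.05), against 0.407% of all gene and strain pairs. In CAST/EiJ 3 members were called (0.728% of all genes) and in WSB/EiJ 1 (0.793%), all lower than in C57BL/6J. Over all genes 101 calls were higher and 111 lower in CAST/EiJ, and 122 higher and 109 lower in WSB/EiJ. No member was called in 129S1/SvImJ (0.306% of all genes), A/J (0.227%), DBA/2J (0.175%) or NOD/ShiLtJ (0.213%), where 5, 5, 5 and 6 members (9.09 to 10.9%) had an unadjusted p under 0.05, against 6.75%, 4.64%, 4.16% and 4.44% of all genes. DESeq2 called 2, 1, 0 and 2 members in these strains, against 2.1%, 1.57%, 1.6% and 1.5% of all genes. The median log2 fold change of the members lay between -0.19 in DBA/2J and 0.27 in 129S1/SvImJ, and that of all genes was within 0.01 of 0 in every strain. These medians include members with 0 counts in both strains. Under edgeR's own filter, which keeps 43 members, the members' median was -0.45 in WSB/EiJ, -0.33 in DBA/2J and -0.24 in NOD/ShiLtJ. It was -0.18 in A/J, -0.05 in 129S1/SvImJ and 0.17 in CAST/EiJ, while that of all genes lay between 0 and 0.14. DESeq2 called 6 members in CAST/EiJ, 2 higher and 4 lower, against 2.55% of all genes (438 higher and 305 lower). In WSB/EiJ it called 6 members, 3 higher and 3 lower, against 3.63% of all genes (465 higher and 592 lower). The members that DESeq2 called higher in any strain were Zfp947, Zfp960, Zfp963 and Zfp977, each with 0 counts in C57BL/6J.

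Zfp950 was lower than in C57BL/6J by a log2 fold change of -4.29 (SE 0.95, adjusted p = 0.0083, edgeR) in WSB/EiJ and of -3.56 (SE 0.89, adjusted p = 0.0254) in CAST/EiJ. Without C57BL/6J replicate 2, the library at 137.3 CPM, these were -3.42 with an adjusted p of 0.0898 and -2.69 with 0.321. In libraries tagged high the WSB/EiJ value was -7.32. The 4 WSB/EiJ libraries tagged high held at most 0.731 CPM and the 2 tagged low 3.82 and 7.86 CPM. The CAST/EiJ call was also lost without CAST/EiJ replicate 1, 3, 4 or 6, at adjusted p of 0.0621 to 0.0947. Zfp979 was lower in CAST/EiJ by -4.57 (SE 1.21, adjusted p = 0.0413), a call lost without any 1 of 14 libraries (C57BL/6J replicates 3, 5 and 6, A/J replicate 4, NOD/ShiLtJ replicates 1 to 5 and CAST/EiJ replicates 1 to 4 and 6) at adjusted p of 0.0506 to 0.151 and a log2 fold change of -3.95 or stronger. Without CAST/EiJ replicate 5, which held 11 of the strain's 12 counts, it was -8.09. In male libraries alone no pair was called, with adjusted p of 0.569 for Zfp950 in WSB/EiJ, 0.950 in CAST/EiJ, 0.101 for Zfp979 and 0.0722 for Zfp984. The log2 fold changes in males were -2.71, -2.43, -4.35 and -6.80.

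Zfp984 (ENSMUSG00000078495, chr4:147753974-147809788), with 11 fingers, is the fourth pair. CAST/EiJ held 2 counts in 1 of its 6 libraries, against 333 counts over the 6 C57BL/6J libraries, in which the level ran from 1.31 to 23.5 CPM with a median of 9.50. The ratio of the scaled totals was 238 (exact 95% interval 65.4 to 1970, counting error only). The fitted log2 fold change was -7.84 (SE 1.9, adjusted p = 0.0165), and it lost the call without CAST/EiJ replicate 1, 2 or 5 (adjusted p of 0.0555 to 0.0606). The DBA/2J libraries were also low, at 3.53, 0, 1.19, 0 and 0 CPM. NOD/ShiLtJ ran from 2.12 to 28.9 CPM (median 8.65), and the A/J libraries stood at 1.15, 32.9, 2.82, 2.27 and 11.6 CPM. In 129S1/SvImJ the level ran from 0 to 31.4 CPM (median 3.21) and in WSB/EiJ from 0 to 31.6 CPM (median 0.402). All strains other than CAST/EiJ overlapped with C57BL/6J. Across the 7 strains the adjusted p was 0.0697 in edgeR, 0.0187 in DESeq2 and 0.0273 in edgeR on male libraries alone. It was also under 0.05 without DBA/2J replicate 1 (0.0369), WSB/EiJ replicate 2 (0.0464) or 129S1/SvImJ replicate 1 (0.0471). Gm13212, which shares most of the 22.4% of Zfp984 windows found elsewhere, had 62 counts in CAST/EiJ (mean 0.434 CPM) and 7 in C57BL/6J (0.210 CPM). It had 129 counts in DBA/2J (0.492 CPM), 131 in WSB/EiJ (9.36 CPM) and 2 to 4 in each other strain. How reads were divided between the 2 genes was not tested.

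Zfp982 (ENSMUSG00000078496, chr4:147492417-147513486), with 7 fingers and 0.598% of windows shared, had 0 counts in the 6 CAST/EiJ libraries and 2 in the 6 NOD/ShiLtJ libraries. The A/J libraries stood at 7.88, 6.09, 8.75, 0 and 5.27 CPM, and C57BL/6J ran from 0.180 to 12.7 CPM with a median of 4.26. Against the A/J mean of 5.60 ± 3.42 CPM (SD, n = 5), CAST/EiJ was at least 128-fold lower, with 3 counts over the strain as the floor. The DBA/2J libraries stood at 4.15, 2.41, 6.604, 4.31 and 0 CPM, and 129S1/SvImJ ran from 0 to 10.9 CPM with a median of 4.21. WSB/EiJ had the gene in 1 library (10.2 CPM). Every C57BL/6J library lay above the CAST/EiJ and NOD/ShiLtJ libraries, the lowest of them at 0.180 CPM. The adjusted p across strains was 0.0964 in edgeR and 0.0094 in DESeq2, and it was 0.0084 without WSB/EiJ replicate 1, the library that held the gene.

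Because the alignment genome was that of C57BL/6J, the rank of this strain was read over all members. C57BL/6J had the highest mean in 6 of 55 members (10.9%), against 14.9% of all genes and 49 of 299 other Zfp genes (16.4%). CAST/EiJ and WSB/EiJ were highest in 11 members each (20%, against 13.3% and 14.6% of all genes) and 129S1/SvImJ in 13 (23.6% against 21.6%). DBA/2J was highest in 6 (10.9% against 11.2%), NOD/ShiLtJ in 5 (9.09% against 11.2%) and A/J in 3 (5.45% against 13.2%). In the 11 members of WSB/EiJ a single library made 36.8% (Zfp975) to 100% (Zfp977) of the strain's sum, and over all 55 members the median was 44.7%. C57BL/6J also held the most members without a single count, 13 of 55 (23.6%), followed by WSB/EiJ with 9, A/J with 8, DBA/2J and CAST/EiJ with 6 each, NOD/ShiLtJ with 4 and 129S1/SvImJ with 2. Over all genes the share at 0 counts was 34.6% in C57BL/6J, 40.8% in WSB/EiJ and 22.3 to 34.8% in the other strains, and over the other Zfp genes 5.35% in C57BL/6J and 2.34 to 7.36% elsewhere. The scaled depth over a whole strain was 266262001 counts in 129S1/SvImJ, 78549427 in DBA/2J, 68593112 in CAST/EiJ and 57090511 in NOD/ShiLtJ. It was lower in C57BL/6J (47976067), A/J (46703850) and WSB/EiJ (17409613). Reads that failed to align in the other strains are not in these tables, and their part was not tested.

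A further criterion was at most 3 counts of a member over a whole strain and a mean above 1 CPM in another. It was met by 15 of 55 members (27.3%), a share near the 24.9% of all genes, and by 12% of the other Zfp genes. Among genes with a mean of 1 to 30 CPM it was met by 10 of 44 members (22.7%) against 18.1% of all genes. In the highest strain of these 15 members a single library made 23.4% (Zfp990) to 100% (Zfp977) of the sum. It made 99.6% for Zfp981, 98.5% for Zfp985 and 87.8% for Zfp988. The 15 members gave 37 pairs of a member and a strain, 9 of them in C57BL/6J and 9 in WSB/EiJ, the shallowest strain. The chromosome 4 cluster, with 13 of the 55 members, held 9 of the 15: Zfp981, Zfp982, Zfp984, Zfp985, Zfp988, Zfp990, Zfp991, Zfp992 and Zfp993.

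Zfp990, at the proximal end of the chromosome 4 cluster (13 fingers), had 0 counts in 5 A/J libraries, 1 in DBA/2J and 2 in CAST/EiJ, while all 6 NOD/ShiLtJ libraries held it at 2.11 to 6.74 CPM (mean 4.80 ± 2.01, SD). A/J was at least 74.7-fold lower than NOD/ShiLtJ. C57BL/6J had 21 counts, all in 1 library, and the adjusted p between strains was 0.246 in edgeR and 0.0432 in DESeq2, and 0.0461 in edgeR without that library. The pattern was thus uniform within NOD/ShiLtJ and scattered in 129S1/SvImJ, where 3 of 9 libraries were at 0.

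Zfp985 (10 fingers) was counted in 5 of 6 NOD/ShiLtJ libraries, at up to 7.25 CPM, and was at 0 in every library of C57BL/6J, A/J, DBA/2J and CAST/EiJ. Its highest mean was in WSB/EiJ but came from a library of 51 counts (26.7 CPM), and 129S1/SvImJ had it in 1 of 9 libraries (39 counts). The adjusted p was 0.192, and 0.0171 without 129S1/SvImJ replicate 7, the library with those 39 counts.

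Zfp988, Zfp991 and Zfp993 were each at 0 counts in both C57BL/6J and WSB/EiJ, and Zfp981 as well. They share between 6.43% (Zfp981) and 66.1% (Zfp993) of their windows with other genes, and their highest strain means were only 1.11 CPM for Zfp988 and 1.20 CPM for Zfp991 in CAST/EiJ and 1.75 CPM for Zfp981 and 2.56 CPM for Zfp993 in 129S1/SvImJ. Zfp991 was counted in 6 of 6 CAST/EiJ libraries, at 0.0475 to 3.24 CPM. The Zfp981 mean in 129S1/SvImJ came almost wholly from 1 library at 15.7 CPM (99.6% of the strain's sum), whereas in CAST/EiJ 5 of 6 libraries held the gene at a median of 1.002 CPM. A low level in those strains was not detectable at this depth, since 3 counts over the strain already make 0.0625 CPM in C57BL/6J and 0.172 CPM in WSB/EiJ.

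Zfp992, 99.5% identical to Zfp991 over its aligned coding sequence, had 2 counts in WSB/EiJ against 346 in NOD/ShiLtJ, in which 4 of 6 libraries held it. The ratio of scaled totals was 52.8 (exact 95% interval 14.5 to 437). Outside chromosome 4, Zfp937 on chromosome 2 had 3 counts in WSB/EiJ, and its ratio of scaled totals in 129S1/SvImJ to WSB/EiJ was 34.1 (11.6 to 165). Zfp934 on chromosome 13 had 1 count in WSB/EiJ and was present in all 6 CAST/EiJ libraries at 2.49 to 10.6 CPM.

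Zfp960 and Zfp947 on chromosome 17 and Zfp963 on chromosome 8 were at 0 counts in C57BL/6J. Zfp960, with 61.6% of windows shared and most with Zfp97, was present in all 6 CAST/EiJ libraries at 1.39 to 9.10 CPM, and C57BL/6J was at least 61.2-fold below the CAST/EiJ mean. Its relative Zfp97 had 226 counts in C57BL/6J and 20 in CAST/EiJ, the opposite order in these 2 strains. The order did not hold throughout. In A/J Zfp97 had 193 counts while Zfp960 was above 3 counts, and in WSB/EiJ each had 1 count. Zfp947 came mainly from 129S1/SvImJ, where 3 of 9 libraries held it at up to 22.4 CPM. Zfp963 stood at 0 to 22.6 CPM in WSB/EiJ (median 4.22) and shares 33.9% of its windows, most with Gm20422, which overlaps it and was at 0 counts in all strains. None of these 3 members passed the test between strains, with adjusted p of 0.503 to 0.708 in edgeR. Against C57BL/6J, DESeq2 called Zfp947 in 5 strains (all but DBA/2J), Zfp960 in 129S1/SvImJ and CAST/EiJ and Zfp963 in WSB/EiJ. These calls are set against 0 counts in C57BL/6J, where a fold change has no firm size. The Zfp947 call in WSB/EiJ sets 1 count against 0, and Zfp947 was counted in 9 of 43 libraries.

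**Figure D4:**
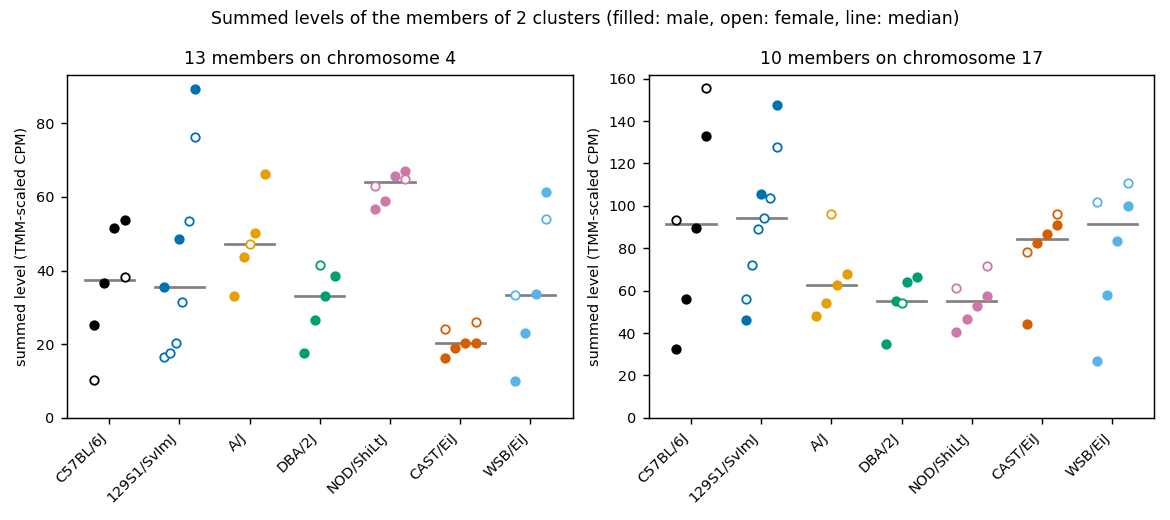
Summed level in TMM-scaled CPM of the 13 members of the chromosome 4 cluster and the 10 members of the chromosome 17 cluster in each library, by strain; filled points are male and open points female libraries, and the line is the median. On chromosome 4 the CAST/EiJ libraries (16.3 to 25.9 CPM) lie below the NOD/ShiLtJ libraries (56.9 to 67.2 CPM), and on chromosome 17 all strains overlap.

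Summed over the 13 members of the chromosome 4 cluster, the level was 62.8 ± 4.05 CPM in NOD/ShiLtJ (SD, n = 6) and 21.0 ± 3.48 CPM in CAST/EiJ (SD, n = 6), and these strains did not overlap. Every NOD/ShiLtJ library also lay above every C57BL/6J and DBA/2J library. The other means lay between 31.5 CPM in DBA/2J and 48.1 CPM in A/J, with wider spreads. In CAST/EiJ most of the sum was Zfp933, at a mean of 14.7 CPM, the member at the distal end of the cluster that shares no window with another gene. The 10 members on chromosome 17 summed to means of 54.9 CPM in DBA/2J to 93.6 CPM in 129S1/SvImJ, with ranges that overlapped between all strains. The sums were read as a description, since the members were known to differ between strains.

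Members with more shared sequence had lower levels. The 20 members that share no window had a median of the mean levels of 1.77 CPM per kb, the 24 that share under 20% had 1.29 and the 11 that share 20% or more had 0.200. At most 3 counts in a whole strain beside a mean above 1 CPM in another was seen in 1 of 20, 7 of 24 and 7 of 11 members. In edgeR 0 of the 11 most shared members were called between strains, against 2 of 20 and 1 of 24. These counts are few, since Zfp979 (19.0%) lies just under the 20% limit, and Zfp984 (22.4%) was called by DESeq2 and, in edgeR, in CAST/EiJ against C57BL/6J. Whether reads that fit several genes were dropped in counting is not given in the sources used here, and its part in these levels was not tested. In 14 members another gene overlaps on the same strand, Gm20707 for Zfp984 and Gm13155 for Zfp979 among them.

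**Figure D5:**
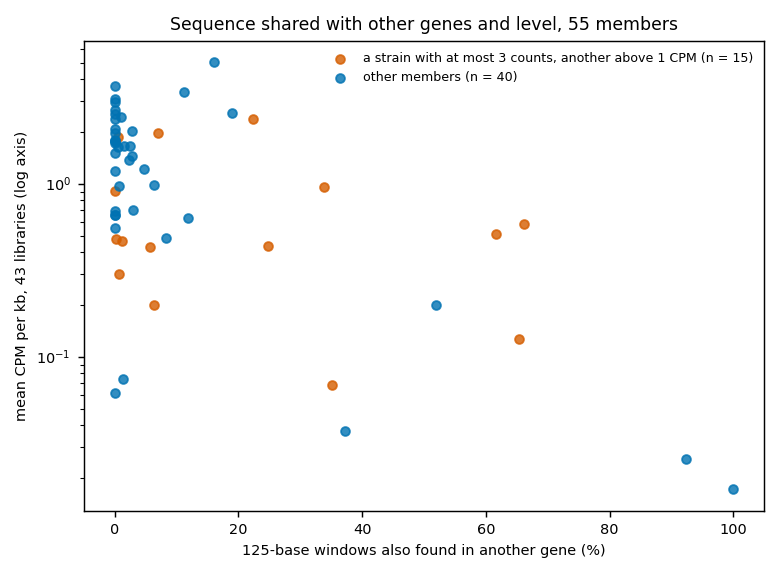
Mean level over 43 libraries in CPM per kb of gene model (log axis) against the percent of read-length windows also found in another gene, 1 point per member. The 11 members that share 20% or more have a median of 0.200 CPM per kb, against 1.77 for the 20 members that share none.

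Wild-derived against long-inbred strains was the study's comparison of genetic background. Of 55 members 1 was called, Zfp950, lower in the wild-derived strains, against 0.749% of all genes. Its level was 0 to 8.24 CPM with a median of 1.87 in 12 wild-derived libraries and 0.413 to 137.3 CPM with a median of 12.6 in 31 long-inbred libraries, ranges that overlap. The log2 fold change was -2.87 (SE 0.59, adjusted p = 0.00265, edgeR). Without WSB/EiJ it was -2.58 with an adjusted p of 0.0594, and then Zfp979 and Zfp984 were called instead, both lower (0.98% of all genes). Without CAST/EiJ the calls were Zfp950, lower, and Zfp946, higher (0.895% of all genes). With both wild-derived strains the log2 fold change of Zfp946 was 2.18 (SE 0.64, adjusted p = 0.0968, edgeR). A single library made 71.4% of its WSB/EiJ sum. In the male libraries the log2 fold change of Zfp950 was -2.20 with an adjusted p of 0.326. The test takes libraries as replicates, although origin belongs to the strain (2 wild-derived and 5 long-inbred strains), so its p does not measure the spread between strains. With counts summed per strain the adjusted p of Zfp950 was 0.366, and 0.0317% of all genes were called. The median log2 fold change was 0.03 over the members and -0.38 over all genes under this scaling, and 0.15 and 0 in DESeq2. The members' median was -0.83 without CAST/EiJ and -0.16 without WSB/EiJ.

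Between females and males no member was called, against 2.85% of all genes. At an unadjusted p under 0.05 there were 5 members (9.09%), against 13.1% of all genes, and DESeq2 called 0 members and 3.43% of all genes. The smallest p belonged to Zfp971, a KRAB gene of the chromosome 2 cluster with 12 fingers. It stood at 0.05001 to 80.4 CPM with a median of 7.85 in 16 female libraries and at 0 to 37.7 CPM with a median of 3.62 in 27 male libraries. The log2 fold change was 1.52 (SE 0.61, adjusted p = 0.211, edgeR). Between cortex and hippocampus no member was called either, against 0.0755% of all genes, with 2 members (3.64%) at an unadjusted p under 0.05, against 5.6% of all genes, and 0 called by DESeq2. The smallest p there was that of Zfp977, lower in cortex by a log2 fold change of -4.38 (SE 1.99, adjusted p = 0.669), and it rests on the WSB/EiJ hippocampus library with 207 counts.

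The genes of the silencing complexes that KRAB zinc finger proteins recruit were also read, as a list of 19. Trim28, the corepressor bound by the KRAB box, averaged 71.7 ± 28.3 CPM (SD, n = 43) and was present in all libraries at 13.2 to 134.7 CPM. Setdb1, which methylates histone H3, averaged 25.6 ± 13.7 CPM and the HP1 genes Cbx5 and Cbx3 177.2 ± 49.2 and 58.1 ± 21.5 CPM. Of these 19 partner genes 0 were called between strains, between wild-derived and long-inbred strains or between regions in edgeR. The shares of all genes were 2.68%, 0.749% and 0.0755%. At an unadjusted p under 0.05 there were 2, 1 and 0, against 10.7%, 7.01% and 5.6% of all genes. DESeq2 called Chd3 between strains (4.52% of all genes), Cbx3 between wild-derived and long-inbred strains (1.36%) and 0 between regions (0.189%). Between the sexes 4 of 19 were called, against 2.85% of all genes, or 7.54% of the 12420 genes kept by edgeR's own filter. All 4 were higher in females: Cbx1 (HP1 beta) by a log2 fold change of 1.49 (SE 0.20), Mphosph8 of the HUSH complex by 0.92 (SE 0.24), and the NuRD helicases Chd3 by 0.65 (SE 0.16) and Chd4 by 0.55 (SE 0.12), with adjusted p of 8.38e-08, 0.0133, 0.00978 and 0.00157 in edgeR. DESeq2 called 3 of these and not Chd3, against 3.43% of all genes. Over all genes 745 of 830 sex calls were higher in females in edgeR and 609 of 1000 in DESeq2. The share of counts in rRNA-like genes, read as a measure of library preparation, did not overlap between the sexes. It was 1.594 to 12.11% in the female libraries and 12.97 to 29.26% in the male libraries. Sex and library preparation therefore cannot be told apart in these calls. No member passed in the same comparison, but the difference between partners and members was not tested.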

How the data were processed

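RNA-seq was measured in 43 libraries of sorted brain endothelial cells. The authors aligned single-end reads to mm10 with HISAT2 2.1.0, used SAMtools 1.9, and deposited raw counts per gene from featureCounts (Subread 1.4.4), after rRNA depletion and a stranded low-input kit. Handling of reads that fit several genes and the strand setting are not given in the sources used here. From these counts, genes with at least 0.5 CPM in 1 library (29120) were scaled by TMM and tested with edgeR 4.0.16 (quasi-likelihood, R 4.3.3, limma 3.58.1) in a fit over all strains, with Benjamini-Hochberg adjustment over all genes and calls at 0.05. DESeq2 1.42.0, other filters, library subsets and each library left out in turn were alternatives. On simulated counts with known changes, the share of false calls exceeded 0.05 in the strain, sex and region tests, so calls near the threshold are less certain than their adjusted p states. Positions and windows came from GENCODE M21, relatives from BLAST 2.17.0 and promoters from RefSeq GRCm38.p6. Python 3.11.15, pandas 2.3.3, numpy 2.4.6, SciPy 1.17.1 and matplotlib 3.10.9 were used. Named members were those called between strains or groups, those with at most 3 counts in a whole strain, the 5 highest per kb and the smallest p per comparison, except where a choice after seeing values is stated. The members and lists were chosen with earlier results of these data known. Depth was 1626534 to 49372356 counts per library. Intervals and floors of 3 counts cover counting error only, since reads are not independent molecules.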

Additional observations from a re-analysis of the deposited data

Results flagged for a closer look

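The levels of the 4 members called between strains or against C57BL/6J were checked in each of the 7 strains for a library whose distance to the nearest other library was large relative to the range of its strain (Dixon's ratio). Of 28 such groups 8 held one. Chance flags about 1 in 20 groups of normally distributed values, a rate that cannot be applied here, since the members were chosen for their calls and many groups hold mostly zeros. Zfp950 stood at 137.3 CPM in the female cortex library C57BL/6J replicate 2, next to 37.4 CPM. Zfp977 stood at 50.4 CPM in WSB/EiJ replicate 1 and at 0.434 CPM (3 counts) in CAST/EiJ replicate 5, with all other libraries of these strains at 0. Zfp979 stood at 19.1 CPM in DBA/2J replicate 5, next to 8.97 CPM, and at 1.59 CPM in CAST/EiJ replicate 5, next to 0.0397 CPM. Zfp984 stood at 31.4 CPM in 129S1/SvImJ replicate 7, next to 13.1 CPM, at 31.6 CPM in WSB/EiJ replicate 2, next to 8.59 CPM, and at 0.256 CPM (2 counts) in CAST/EiJ replicate 6, with the others at 0.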

How the results depend on the processing

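The log2 fold changes called between groups kept their sign under every alternative. The members' medians and several uncalled changes did not, such as those of Zfp977 and Zfp985 by origin and sex and of Zfp971 and Zfp990 by origin. Members called between strains numbered 3 (2.68% of all genes), and 5 with DESeq2 (4.52%) and 14 with edgeR's default deviances (25.5% of members against 46.4% of all genes). There was 1 in male libraries (1.72% of all genes) and 1 in libraries tagged high (2.41%), and 2 to 4 with each library left out. Member and strain pairs called against C57BL/6J numbered 4 (0.407% of all gene and strain pairs), and 17 with DESeq2 (1.5 to 3.63% of all genes, by strain). There were 0 in male libraries (0.0763 to 0.552%), 2 in libraries tagged high (0.0542 to 1.38%) and 1 to 4 with each library left out. The fewest, 1, came without CAST/EiJ replicate 1, and 2 came without C57BL/6J replicate 2 or without CAST/EiJ replicate 2, 3, 4 or 6. In wild-derived against long-inbred strains 1 member was called (0.749% of all genes), and 6 with default deviances (23%). There were 0 in male libraries (0.447% of all genes), 2 without CAST/EiJ (0.895%) and 2 without WSB/EiJ (0.98%). With counts summed per strain 0 members and 0.0317% of all genes were called. With each library left out 1 to 2 members were called, the 2 without WSB/EiJ replicate 1. Between sexes 0 were called and 5 with default deviances (36% of all genes), and between regions 0 and 3 with default deviances (27.6%), both 0 with any library left out. The subsets hold fewer samples, and the cause of the other changes was not tested. No paired analysis was possible because no label links a library to a mouse. Low depth limits what can be said of members near 0, most in WSB/EiJ, where 3 counts over the strain make 0.172 CPM.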
